A study of Codonopsis pilosula with 12 samples.

Results

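The levels of 6 stress and signalling genes of Codonopsis pilosula were followed across all 12 leaf libraries of the study: DREB1D, ERF5, CML37, NUDT17, At2g30020 and ANP2. They are 6 of 55270 assembled genes, and all 6 were among the 29168 genes that passed the filter on low counts. They were chosen by their measured levels in the control libraries, which were higher in watered leaves of cultivar G1 than in watered leaves of cultivar W1, and that difference is therefore described below and not tested. No genome of the species was used, and each gene is an assembled unigene (further unigenes are given below without the prefix TRINITY) named after its best protein hit in another plant, so no chromosome position is given.

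The plants were soil-grown seedlings, 4 weeks after emergence, of Weidang No. 1 (W1), a local variety, and Gandang No. 1 (G1), a selected cultivar. CW1 and CG1 are the leaves of W1 and G1 on drought day 0, the day water was withheld, and DW1 and DG1 are those on drought day 4, with 3 libraries in each of the 4 groups. Watered plants were sequenced on day 0 only, so drought and day cannot be told apart. A label of CW1 replicate 1 calls it drought treated although its title groups it with the controls, and the sources differ on whether a library holds 1 pot or a mix of 2, so n counts libraries and every p-value measures only the spread between them.

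Total expected counts per library ran from 12415229 to 22837632. Leaf mesophyll markers (60 genes, such as RBCS and LHCB) summed to between 25414 and 187446 TPM, the transcript level scaled to gene length and library depth, and root markers (31 genes) to between 147 and 377 TPM. No gene of either list was at 0 in every library. The lowest mesophyll sum belonged to DG1 replicate 1, and the other 11 libraries were at 95707 TPM or above. In the same library 6.76% of TPM came from genes whose best SwissProt hit is a vertebrate protein, against 1.55% to 2.19% in the other 11. DG1 replicate 1 therefore stands apart. Values without it are given below for ERF5, NUDT17, At2g30020 and ANP2 in DG1 against DW1, and for ANP2 in DG1 against CG1. The gene list results of the DG1 group keep it.

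Most of these proteins are of kinds that work in the fast signalling layer of plant stress responses. A wound, a pathogen elicitor, cold or loss of water raises calcium in the cell, which EF-hand proteins such as calmodulin-like proteins bind. Mitogen-activated protein (MAP) kinase cascades pass the signal on, type 2C protein phosphatases switch the kinases off, and transcription factors of the AP2/ERF family then turn on defence and tolerance genes. In Arabidopsis many genes of this layer respond within minutes of handling or touch as well as to drought.

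DREB1D (TRINITY_DN17159_c0_g4, 1172 bp) is a DREB1/CBF factor, of the family that binds the dehydration-responsive element in cold and drought genes. ERF5 (TRINITY_DN21205_c0_g5, 1079 bp) is an ethylene-responsive factor whose best hit is the tobacco protein, annotated with ethylene signalling and the response to chitin. CML37 (TRINITY_DN14122_c0_g1, 625 bp) encodes a calmodulin-like calcium sensor. NUDT17 (TRINITY_DN13001_c0_g3, 1702 bp) encodes a Nudix hydrolase, an enzyme that cleaves nucleoside diphosphate compounds, and the assembly lists 6 transcripts for it. At2g30020 (TRINITY_DN16647_c0_g9, 2046 bp) encodes a type 2C protein phosphatase, which in Arabidopsis inactivates MAP kinases after wounding. ANP2 (TRINITY_DN981_c0_g1, 1250 bp) encodes a MAP kinase kinase kinase, at the top of such a cascade.

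For ANP2 the study designed a pair of qRT-PCR primers of 20 bases each, which are shown because they are the sequence the study tied to this unigene. No part of either is marked, and both are written from the 5′ end:
ANP2 forward: gtccattcacaaaagcgggt
ANP2 reverse: acccaagcgcccatatatca

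Both AP2/ERF factors were highest in the 3 CG1 libraries. DREB1D stood at 0.05, 0.5 and 0.95 TPM in CW1 replicates 1, 2 and 3, and at 23.8, 55.8 and 52.9 TPM in CG1. It was listed at 0, 0.07 and 0 TPM in DW1 and at 0.16, 0.10 and 0.09 TPM in DG1. The gene was thus close to its lowest readable level in droughted leaves, with 1 count over all 3 DW1 libraries and 7 over all 3 DG1 libraries. The mean in CG1 was 44.2 ± 17.7 TPM (SD, n = 3) and in CW1 0.50 ± 0.45 TPM, a ratio of 88.3.

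ERF5 was readable in every library. Its values were 14.5, 29.8 and 38.0 TPM in CW1 and 164, 291 and 275 TPM in CG1. In droughted leaves they were 10.0, 12.5 and 11.9 TPM in DW1 and 29.4, 16.3 and 19.2 TPM in DG1. Every CG1 library lay above every other library, and the ratio of CG1 (243 ± 69.2 TPM) to CW1 (27.4 ± 11.9 TPM) was 8.88.

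The calcium sensor CML37 was nearly absent from the counts of CW1. It was listed at 0.11, 0 and 0 TPM in CW1, and CG1 replicates 1, 2 and 3 held 9.98, 106 and 60.3 TPM. The droughted libraries were at 0, 0 and 0.14 TPM in DW1 and at 0.12, 0.32 and 0.38 TPM in DG1. The 3 CW1 libraries together held 1 count against 1671 in CG1. After scaling to library sizes adjusted by the TMM normalization factor, the ratio was 1919, with a 95% exact counting interval of 344 to 75834. Intervals of this kind cover counting error only.

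NUDT17 had almost the same level in all 3 CW1 libraries, at 16.21, 16.96 and 17.01 TPM. It was at 64.6, 171 and 133 TPM in CG1, 29.7, 29.8 and 22.4 TPM in DW1 and 28.8, 16.9 and 17.8 TPM in DG1. The CG1 mean of 123 ± 53.9 TPM was 7.34 times the CW1 mean of 16.7 ± 0.45 TPM. All DW1 values lay above all CW1 values, and the DG1 values overlapped both W1 groups.

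Of the signalling enzymes, At2g30020 had the values 6.75, 7.83 and 6.22 TPM in CW1 and 42.7, 116 and 79.0 TPM in CG1. It was at 6.03, 12.5 and 7.00 TPM in DW1 and at 18.4, 10.18 and 10.97 TPM in DG1. The highest library outside CG1 was DG1 replicate 1, and the ratio of the CG1 mean to the CW1 mean was 11.4.

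ANP2 varied several-fold within CG1, within DW1 and within DG1. It stood at 0.46, 0.28 and 0.40 TPM in CW1 and at 9.12, 79.3 and 65.6 TPM in CG1. In DW1 it was at 0.19, 2.01 and 1.02 TPM, and in DG1 at 7.71, 1.94 and 0.88 TPM. CG1 replicate 1 was only 1.18 times as high as DG1 replicate 1, while the CG1 mean was 135 times the CW1 mean.

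**Figure D1:**
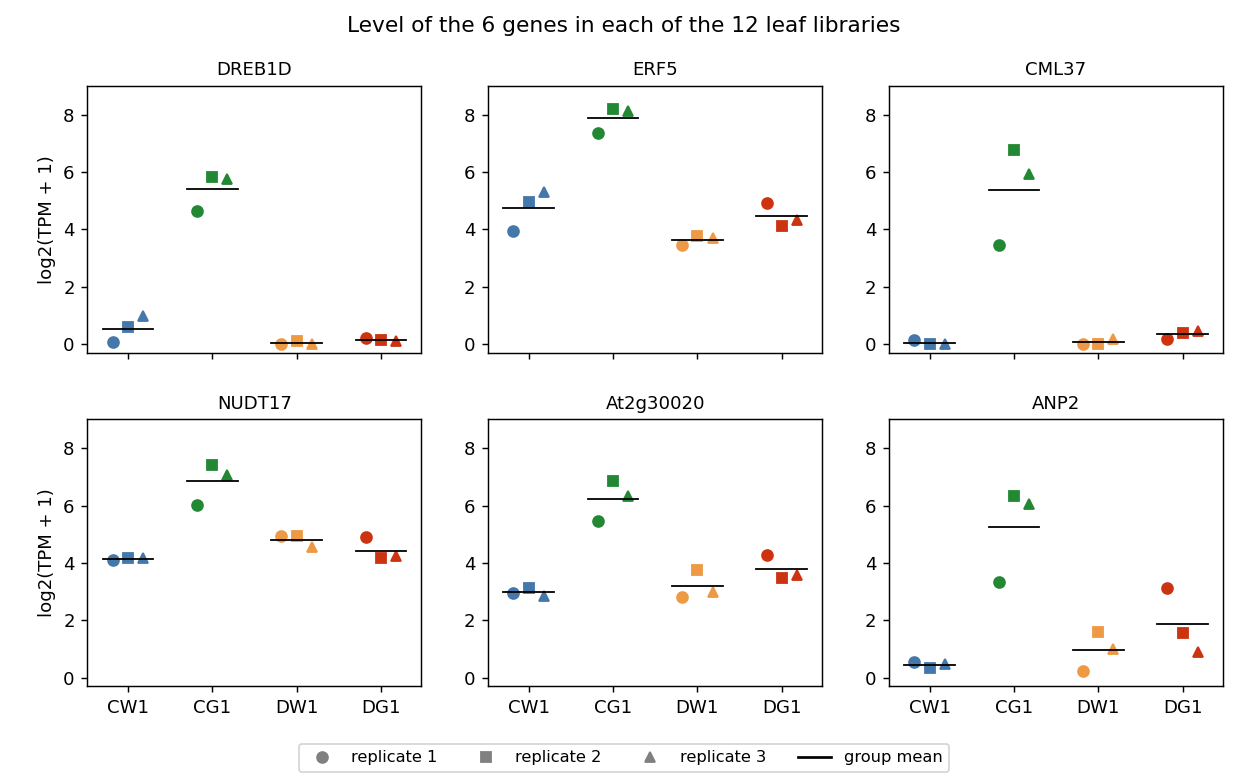
Level of each of the 6 genes as log2(TPM + 1), a log scale, in the 12 libraries by group; points are single libraries, marker shapes the replicate numbers, and lines the group means. All 3 CG1 libraries lie above the other 9 for each of the 6 genes, and CG1 replicate 1 is the lowest of the 3.

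The 3 CG1 values lay above the 3 CW1 values in 6 of 6 genes, where 6.16% of all tested genes did so. CG1 lay above all 9 other libraries in 6 of 6 genes as well, against 1.76% of tested genes. Both counts restate the choice of the genes. The fitted log2 difference of CG1 over CW1 (edgeR, ± SE) was 6.66 ± 0.80 for DREB1D, 3.35 ± 0.43 for ERF5, 10.4 ± 1.27 for CML37, 3.12 ± 0.38 for NUDT17, 3.76 ± 0.47 for At2g30020 and 7.33 ± 1.25 for ANP2. With a CW1 group at 1 count, the value for CML37 depends on the prior count and is no bound. Without CW1 replicate 1, the library with the conflicting label, the fitted differences were 6.15, 3.05, 12.2, 3.07, 3.75 and 7.49 in the same order.

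Within CG1, replicate 1 was below replicates 2 and 3 in all 6 genes, although by unequal factors. For CML37 replicate 2 was 10.7 times and replicate 3 6.04 times as high as replicate 1. For ANP2 these ratios were 8.70 and 7.19. The other genes had smaller ratios, 2.34 and 2.22 for DREB1D, 1.77 and 1.68 for ERF5, 2.64 and 2.06 for NUDT17 and 2.71 and 1.85 for At2g30020.

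The calcium sensor and the MAP kinase kinase kinase were thus the 2 of 6 genes at least 4-fold lower in replicate 1 than in both others (on TPM + 0.1), where 1.96% of all tested genes (573 of 29168) passed the same limit. In the opposite direction 3.59% of tested genes passed it, and 0 of the 6. Just inside the limit lay CML37, whose smaller ratio was 6.04, and just outside it DREB1D, whose smaller ratio was 2.22. At a 2-fold limit 4 of the 6 passed, and at an 8-fold limit 0 did. On the same scale, DREB1D in CW1 replicate 1 (0.05 TPM against 0.5 and 0.95) lay at the 4-fold limit itself, and no further library held a member past it. One library against 2 allows no test of conditions.

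Counting error was small beside these ratios. The pooled counts of replicates 2 and 3, scaled to TMM-adjusted library sizes, exceeded those of replicate 1. The factor was 10.7 (95% counting interval 8.57 to 13.4) for CML37 and 10.5 (9.08 to 12.2) for ANP2. The smallest factor was that of ERF5, 2.27 (2.18 to 2.36). Replicates 2 and 3 were closer to each other, the ratio of replicate 2 to replicate 3 running from 1.05 for DREB1D to 1.77 for CML37.

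**Figure D2:**
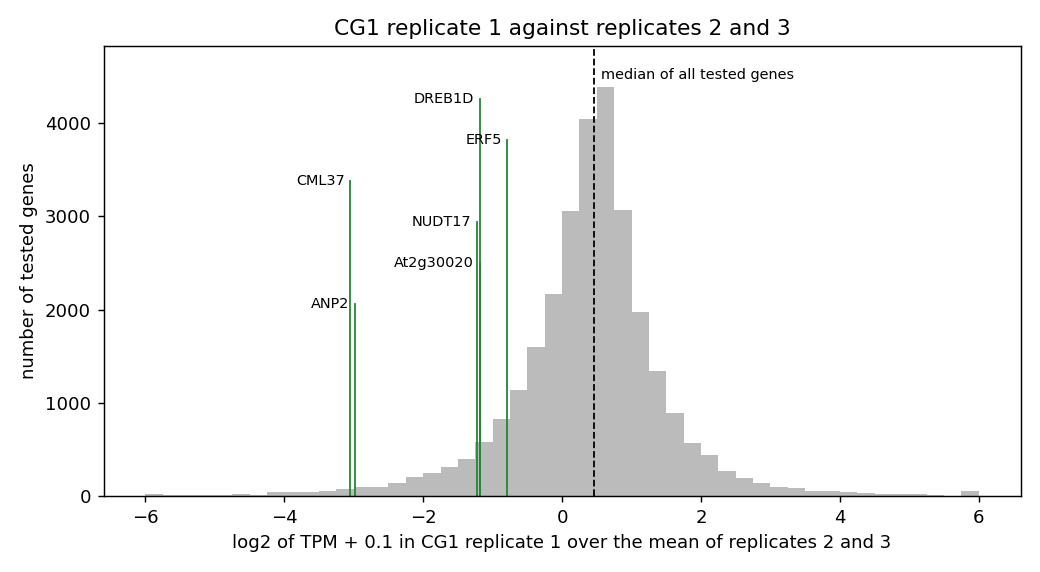
Histogram over the 29168 tested genes of the log2 ratio of CG1 replicate 1 to the mean of replicates 2 and 3 (TPM + 0.1), with values beyond 6 in either direction in the end bins; green lines mark the 6 genes and the dashed line the median of all tested genes, 0.46. CML37 (-3.05) and ANP2 (-2.98) lie at percentiles 1.29 and 1.37, and the other 4 genes between percentiles 6.73 and 11.

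Replicate 1 of CG1 was nevertheless above every library of the other groups for each gene. It exceeded the highest of them by a factor of 25.1 for DREB1D, 4.32 for ERF5, 26.3 for CML37, 2.17 for NUDT17, 2.32 for At2g30020 and 1.18 for ANP2. Without replicate 1 the fitted CG1 over CW1 differences were 7.02, 3.64, 10.9, 3.46, 4.10 and 7.84 in that order of genes.

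Other levels differed between the same libraries. Mesophyll markers summed to 95707 TPM in CG1 replicate 1 and to 187242 and 178390 TPM in replicates 2 and 3, while the W1 libraries ran from 112056 to 160842 on day 0 and from 125549 to 187446 on day 4, and DG1 from 25414 to 153141. Root markers summed to 377 TPM in replicate 1 and to 170 and 147 TPM in the other two, while the W1 libraries ran from 273 to 310 on day 0 and from 180 to 209 on day 4, and DG1 from 165 to 269. Housekeeping genes (124 genes) were at 11079 TPM in replicate 1 and at 7694 and 7481 TPM in the other two, while CW1 ran from 8889 to 11383 TPM, DW1 from 6142 to 8592 and DG1 from 6425 to 7802. The part of these differences in the result was not tested. In leaf RNA as a whole, fewer cells of a type and less RNA per cell cannot be told apart.

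Under drought the 6 genes were compared between the cultivars in libraries that had not chosen them. The spread behind the SE and p-values was estimated over all 12 libraries, so it also draws on CG1 and CW1. From the 6 drought libraries alone the SE was 0.26 for ERF5, 0.23 for NUDT17, 0.37 for At2g30020 and 1.05 for ANP2. The question of this comparison is whether DG1 and DW1 leaves differed on day 4. DREB1D and CML37 passed the filter on low counts through CG1 alone, were left out by it when the 6 drought libraries were fitted by themselves, and held too few counts to be tested here, so 4 of the 6 genes were testable. None of these 4 passed the test (edgeR quasi-likelihood, Benjamini-Hochberg adjusted over all 29168 genes), where 0% of tested genes were called higher and 0.00686% lower in DG1. At an unadjusted p under 0.05 there was 1 gene, near the share of all tested genes (16% in edgeR, 18.1% in DESeq2 and 12.6% in limma), and no adjusted p passed in DESeq2 or limma either.

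That gene was ERF5, with a log2 fold change of DG1 over DW1 of 0.97 ± 0.40 (SE, 95% interval 0.09 to 1.86). Its adjusted p in edgeR was 0.274, and its unadjusted p from the same model fitted across all genes in edgeR was 0.0334. All 3 DG1 values of ERF5 lay above all 3 DW1 values, as they did in 7.14% of tested genes, while ANP2 and At2g30020 overlapped between the groups. Without DG1 replicate 1 the ERF5 value was 0.72. The fitted value of DREB1D, 2.42 ± 1.52 (interval -0.94 to 5.78), rests on 7 counts against 1, and was 4.42 without DW1 replicate 2 and 1.73 without DW1 replicate 1.

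CML37 rests on 8 counts against 1, and its log2 fold change of 2.59 ± 1.56 had an interval of -0.85 to 6.03 and was 4.57 without DW1 replicate 3 and 1.92 without DW1 replicate 1. For both genes a difference was not detectable at this depth. NUDT17 was at -0.29 ± 0.36 (interval -1.07 to 0.49, edgeR adjusted p = 0.744), the only one of the 6 with a value below 0. At2g30020 was at 0.68 ± 0.43 (interval -0.27 to 1.63, edgeR adjusted p = 0.471). Without DG1 replicate 1 the value was -0.55 for NUDT17 and 0.40 for At2g30020.

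The value of ANP2 moved with single libraries. Its log2 fold change was 1.78 ± 1.03 (interval -0.48 to 4.05, edgeR adjusted p = 0.425), and it was 0.53 without DG1 replicate 1, 1.2 without DW1 replicate 1 and 2.59 without DW1 replicate 2. DG1 replicate 1 alone held 156 of the 222 ANP2 counts of the group. After scaling to TMM-adjusted library sizes this was 5.34 times the level of replicates 2 and 3 (counting interval 3.98 to 7.23). The part of that library's low mesophyll markers and high share of vertebrate hits in the ANP2 level was not tested.

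**Figure D3:**
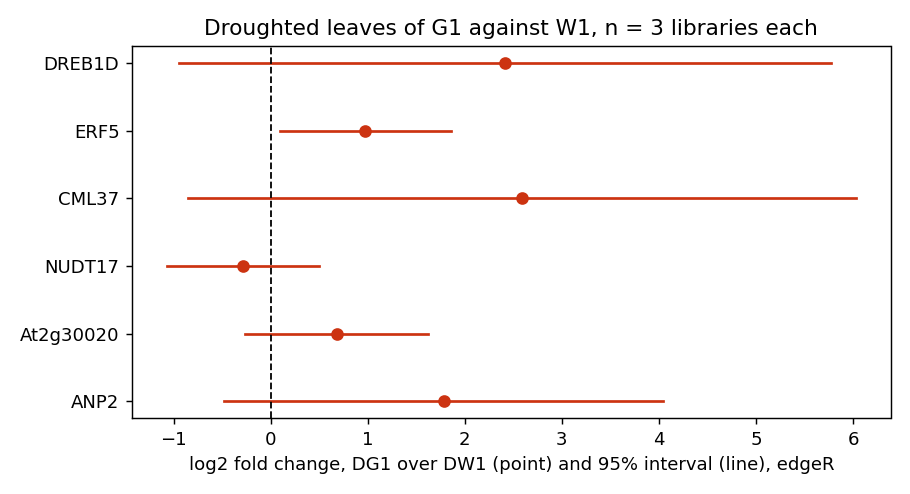
Log2 fold change of DG1 over DW1 in edgeR (points) with 95% intervals (lines) for the 6 genes, 3 libraries per group. The interval of ERF5 (0.09 to 1.86) lies above 0 before adjustment, and those of NUDT17, At2g30020 and ANP2 hold 0. The intervals of DREB1D and CML37 also hold 0 but rest on too few counts to be read.

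The changes from day 0 to day 4 share the CG1 or CW1 libraries that chose the genes, so they are given side by side without a test. In G1 the log2 difference of DG1 from CG1 was -8.61 ± 0.92 for DREB1D, -3.54 ± 0.43 for ERF5 and -7.64 ± 1.05 for CML37. It was -2.61 ± 0.37 for NUDT17, -2.64 ± 0.45 for At2g30020 and -4.00 ± 1.04 for ANP2, or -5.26 for ANP2 without DG1 replicate 1. All DG1 values lay below all CG1 values in 6 of 6 genes, against 19% of tested genes.

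In W1 the differences were nearer to 0 than in G1 for each of the 6 genes. DW1 against CW1 was -4.37 ± 1.25 for DREB1D, -1.16 ± 0.40 for ERF5, 0.21 ± 1.99 for CML37, 0.79 ± 0.36 for NUDT17, 0.44 ± 0.43 for At2g30020 and 1.56 ± 1.15 for ANP2. Only NUDT17 had all DW1 values above all CW1 values (11.3% of tested genes did), and only ERF5 all below (13.7% did). The value of CML37 rests on 1 count in CW1 and 1 in DW1 and ran from -1.77 to 1.97 when single libraries were left out, the highest without CW1 replicate 1, so it has no readable sign. Without DW1 replicate 2 the value was 0.0038 for At2g30020, 0.74 for ANP2 and -6.38 for DREB1D. For the abscisic acid and drought marker list the summed level was 1611 to 2201 TPM on day 0 and 3052 to 3761 TPM on day 4 in W1, and 1769 to 2103 TPM on day 0 and 3585 to 5529 TPM on day 4 in G1. These are sums: of the 65 tested genes of the list 13 were higher and 23 lower in DG1 than in CG1 (edgeR), with a median log2 fold change of 0.08. Of its 82 genes 38 entered by symbols that begin with KIN1, among them kinesins.

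Across all 12 libraries the 6 genes ran closely together, with a Pearson r between log2(TPM + 1) values of 0.867 to 0.978 over the 15 pairs. These pairs share the libraries and the step between CG1 and the rest. Over the 9 libraries outside CG1 r ran from -0.43 to 0.91. The likeness of the 6 genes is therefore mostly that of 1 group of 3 libraries.

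Assembled genes with the same name showed how far the CG1 pattern extended to close relatives, with which reads may be shared. A further CML37 unigene from the same assembly component (DN14122_c0_g2) stood at 0.11, 0.09 and 0 TPM in CW1 and at 12.4, 160 and 70.1 TPM in CG1. In droughted leaves it was at 0, 0.24 and 0.55 TPM in DW1 and at 8.77, 0.48 and 0 TPM in DG1, near CG1 replicate 1 in DG1 replicate 1 only. A more distant CML37 unigene (DN14911_c0_g2) was at 20.7, 10.5 and 17.3 TPM in CW1, 44.4, 285 and 147 TPM in CG1, 23.4, 38.0 and 25.3 TPM in DW1 and 197, 69.0 and 69.6 TPM in DG1. In that one all 3 DG1 values lay above CG1 replicate 1.

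The second NUDT17 unigene (DN16933_c0_g1), the most abundant other Nudix gene, had 72.21, 55.98 and 49.33 TPM in CW1 and 66.6, 279 and 203 TPM in CG1. Here CG1 replicate 1 fell within the CW1 range while replicates 2 and 3 did not. The third (DN14457_c1_g5) was at 1.07 to 2.22 TPM in CW1 and 2.15 to 2.57 TPM in CG1.

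One further At2g30020 unigene (DN18063_c1_g1) was low, at 0.15, 0.24 and 0.33 TPM in CW1 and 0.62, 4.18 and 2.85 TPM in CG1. Of the other ANP2 unigenes, DN11930_c0_g1 stood at 0.86, 0.41 and 0.83 TPM in CW1 and 1.99, 5.72 and 5.06 TPM in CG1. DN15713_c0_g2 had its highest CG1 value in replicate 1, at 9.5 TPM against 4.2 and 4.15 TPM.

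The name ERF5 was carried by 10 other unigenes, of which 7 were tested. In 3 of them all CG1 values lay above all CW1 values, as in 6.16% of all tested genes. Of these 3, DN12772_c0_g1 held 58.3, 33.1 and 25.7 TPM in CG1 replicates 1, 2 and 3, with replicate 1 highest as in DN18226_c0_g6 below. DN17108_c1_g4 held 15.1, 29.6 and 15.9 TPM. The ERF5 unigene from the same assembly component (DN21205_c0_g1) was not among the 3. It was at 37.7, 9.51 and 4.37 TPM in CW1 and 15.5, 4.47 and 10.5 TPM in CG1 (log2 fold change -0.72 ± 0.98). None of the same-name unigenes of the 6 genes passed the CG1 over CW1 test in edgeR, where 0.377% of tested genes were called higher and 0.0651% lower. The smallest adjusted p among them was that of ERF5 DN18226_c0_g6, 0.0615 in edgeR, with 32.96, 11.63 and 10.07 TPM in CG1, where replicate 1 was the highest library. The calls of this comparison depend on single libraries: over all genes 129 were called, 1190 without CG1 replicate 1, and between 3 and 16 without any single one of the other 5 CG1 and CW1 libraries.

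DREB1D had no second unigene of its name, but 2 other DREB1 unigenes were also raised in CG1 replicates 2 and 3. DREB1A (DN13899_c1_g4) was at 0, 0.19 and 0.33 TPM in CW1 and at 18.3, 118 and 132 TPM in CG1, and passed the test with a log2 fold change of 9.21 ± 1.46 (edgeR adjusted p = 0.0297). In droughted leaves it stood at 0.40, 5.05 and 0.26 TPM in DW1 and 2.56, 2.57 and 4.42 TPM in DG1. All DG1 values of DREB1A thus lay above its CW1 values, which was not so for DREB1D. DREB1C (DN20888_c1_g6) was at 0, 0.15 and 0.06 TPM in CW1 and 0.33, 8.40 and 9.44 TPM in CG1, and did not pass the filter on low counts.

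The families of the 6 genes were then counted, the 6 left out. Of 85 other AP2/ERF factors tested, 6 were higher and 0 lower in CG1 than in CW1 (edgeR), with a median log2 fold change of 0.42 where that of all tested genes was -0.04. An unadjusted edgeR p under 0.05, in either direction, was found for 32 of the 85, against 12.8% of all tested genes. DESeq2, which called 3.31% of all genes higher and 1.62% lower in this comparison, called 21 of these factors higher and 1 lower. The 6 called in edgeR included DREB1A, 2 ERF4 unigenes, which are repressors of the ethylene response, and ERF2. The more abundant ERF4 (DN18964_c0_g3) had 21.2, 36.5 and 39.3 TPM in CW1 and 142, 356 and 238 TPM in CG1 (log2 fold change 3.15 ± 0.42, edgeR adjusted p = 0.0211). ERF2 (DN18578_c0_g9) rose by 3.81 ± 0.70 on the log2 scale (edgeR adjusted p = 0.0489). Without CG1 replicate 1 the list had 18 genes higher and 1 lower, without CG1 replicate 2 it had 1 higher, and without CG1 replicate 3 or any single CW1 library it had 0. With the replicate number as a block 3 were higher.

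Of 63 other calmodulins and calmodulin-like genes 1 was higher, CAMBP25, which encodes a calmodulin-binding protein (log2 fold change 3.62 ± 0.51, edgeR adjusted p = 0.0232). The list median was 0.08, and 27 of the 63 had an unadjusted p under 0.05 in edgeR, in either direction. DESeq2 called 14 higher and 0 lower. Without CG1 replicate 1 the count was 17 higher, and without any single other CG1 or CW1 library, or with the replicate number as a block, it was 0. In the other families the counts were 0 higher and 0 lower in edgeR, for 26 Nudix hydrolases (median -0.07, 6 with an unadjusted p under 0.05), 61 type 2C protein phosphatases (median -0.05, 17 with such a p) and 63 MAP kinase cascade genes (median -0.03, 12 with such a p), where 12.8% of all tested genes had such a p. DESeq2 called 1 Nudix hydrolase, 6 phosphatases and 7 MAP kinase cascade genes higher and 0, 0 and 1 lower. Without CG1 replicate 1, edgeR called 2 of 26 Nudix hydrolases, 9 of 61 phosphatases and 8 of 64 MAP kinase cascade genes higher. It called 0, 1 and 0 of them lower, and over all genes 948 higher and 242 lower. Without any single other CG1 or CW1 library 0 were called in these 3 families. The most abundant members of the last 3 families were NUDT17 DN16933_c0_g1, the abscisic acid-signalling phosphatase PP2CA and MPK9.

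PP2CA (DN16290_c0_g3) ran at 20.6, 22.6 and 21.1 TPM in CW1, 29.6, 68.1 and 48.6 TPM in CG1, 109, 171 and 78.9 TPM in DW1 and 213, 159 and 142 TPM in DG1. Its order of groups was therefore not that of the phosphatase At2g30020, with the droughted libraries highest. The most abundant AP2/ERF factor, RAP2-4, had 111 to 128 TPM in CW1 and 145 to 164 TPM in CG1.

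A list of other rapid stress genes (WRKY, ZAT, ATL and similar factors known from touch, wounding and elicitor responses in Arabidopsis) had the highest median of the 14 lists in CG1 against CW1. It was drawn up with the pattern of these libraries known and is not independent evidence of its direction. Of 126 tested, 11 were higher and 0 lower in CG1 than in CW1, with a median log2 fold change of 1.04, and DESeq2 called 40 higher and 1 lower. An unadjusted edgeR p under 0.05, in either direction, was found for 57 of the 126, against 12.8% of all tested genes. WRKY40 (DN12996_c0_g2), a repressor in abscisic acid and defence signalling, had 14.3, 13.0 and 16.1 TPM in CW1 and 68.5, 514 and 450 TPM in CG1 (log2 fold change 4.87 ± 0.79, edgeR adjusted p = 0.0323). The zinc-finger factor ZAT6 rose by 4.54 ± 0.79 (edgeR adjusted p = 0.0407), the deadenylase CAF1-11 by 3.28 ± 0.50 (0.0252) and the RING ubiquitin ligase ATL2 by 3.65 ± 0.56 (0.0256) on the log2 scale. Without CG1 replicate 1 the count was 35 higher and 1 lower, and without any single other CG1 or CW1 library, or with the replicate number as a block, it was 0. The median stayed between 0.76 and 1.16 when single libraries of the comparison were left out, and was 0.47 in limma on log2(TPM + 1).

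The summed level of that list was 1179 to 1357 TPM in CW1 and 2148, 5737 and 4324 TPM in CG1 replicates 1, 2 and 3. It was 1364 to 1735 TPM in DW1, 3440 TPM in DG1 replicate 1 and 1726 and 1785 TPM in DG1 replicates 2 and 3. CG1 replicate 1 was again the lowest of its group, and DG1 replicate 1 stood above the other drought libraries.

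Jasmonate pathway genes, which act in wound responses, showed 0 calls of 64 tested in CG1 against CW1 (edgeR, 17 with an unadjusted p under 0.05). The median was -0.21, and DESeq2 called 8 higher. Without CG1 replicate 1, edgeR called 7 of 69 of these genes higher and 1 lower. Their summed level was nonetheless 3192 and 2503 TPM in CG1 replicates 2 and 3 and 2668 TPM in DG1 replicate 1, and 1245 to 1896 TPM in the other 9 libraries. Of 81 heat shock proteins 0 were called (10 with an unadjusted p under 0.05, and 3 called higher by DESeq2), and the median was 0.03. Without CG1 replicate 1, edgeR called 4 of 84 higher and 0 lower.

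**Figure D4:**
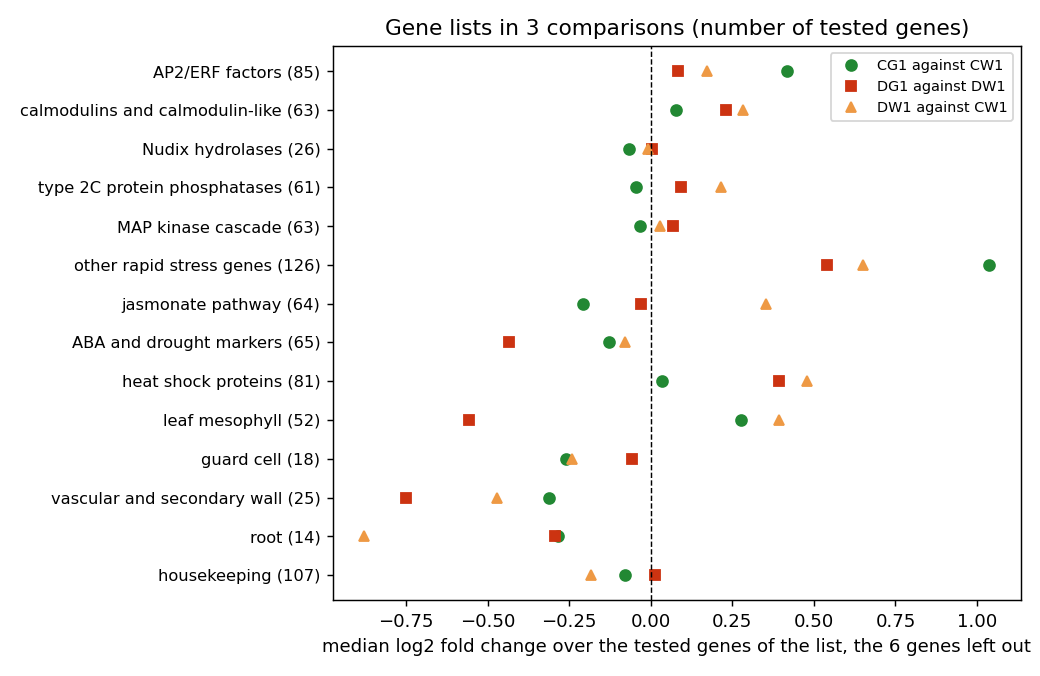
Median log2 fold change of 14 gene lists, the 6 genes left out, in CG1 against CW1, DG1 against DW1 and DW1 against CW1, with the number of tested genes in brackets. The list of other rapid stress genes has the highest median in CG1 against CW1 (1.04), and the Nudix, phosphatase and MAP kinase lists lie between -0.07 and -0.03 there.

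In DG1 against DW1 the edgeR count was 0 higher and 0 lower in each of the 14 lists, with 23 of 126 other rapid stress genes (median 0.54) and 16 of 85 AP2/ERF factors (median 0.08) at an unadjusted p under 0.05, near the 16% of all tested genes. DESeq2, which called 2.11% of all genes higher and 2.76% lower, called 3 of these rapid stress genes and 2 of these factors higher and 1 of each lower, and limma 0 of either. Lists with larger shares at such an edgeR p included 25 of 65 abscisic acid and drought markers (median -0.43), 32 of 107 housekeeping genes (0.01) and 22 of 81 heat shock proteins (0.39). DESeq2 called 1, 6 and 9 of these higher and 9, 10 and 2 lower. In the abscisic acid and drought list 38 of 82 genes entered by symbols that begin with KIN1, among them kinesins, so its median is not that of markers alone. The summed level of that list was 3707, 3761 and 3052 TPM in DW1 and 5529, 3585 and 4360 TPM in DG1. In DG1 against CG1, where 11.5% of tested genes were called higher and 12.3% lower, 10 AP2/ERF factors rose and 22 fell, and 19 other rapid stress genes rose and 24 fell. In the same comparison 18 phosphatases rose and 10 fell. In DW1 against CW1, with 0.771% of tested genes called higher and 0.799% lower, 4 phosphatases rose and 0 fell, and among the other rapid stress genes and AP2/ERF factors 0 were called, 37 and 23 of them at an unadjusted p under 0.05, where 21.2% of all tested genes had such a p. DESeq2, which called 5.44% of all genes higher and 6.64% lower, called 17 and 7 of them higher and 2 and 6 lower, and limma 0. Over all genes the same comparison gave 458 calls with all libraries. It gave 1, 0 and 658 without CW1 replicates 1, 2 and 3 in turn, and 1862, 4 and 67 without DW1 replicates 1, 2 and 3.

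The genes with the most similar course were found by Pearson r between their log2(TPM + 1) over the 12 libraries and the mean standardised course of the 6 genes. Of 29162 other tested genes 191 had r of at least 0.9, and 107 of them carry a symbol. At the top was PBP1 (DN19017_c0_g5, r = 0.989), with 7.02, 8.83 and 16.2 TPM in CW1, 83.3, 357 and 302 TPM in CG1, 6.64 to 9.63 TPM in DW1 and 11.1 to 22.5 TPM in DG1. DURF2 (r = 0.986), the zinc-finger factor ZAT5 (0.985), the CCCH zinc-finger gene At2g40140 (0.984) and the AP2/ERF factor ERF017 (0.984) came next. The remaining 5 were the mitochondrial carrier PUMP5 (0.980), WRKY40 (0.980), OS9 (0.979), BZIP53 (0.979) and ERF025 (0.978).

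The most abundant of these was At2g40140 (DN16023_c0_g2), at 21.2, 31.1 and 38.1 TPM in CW1, 128, 747 and 558 TPM in CG1, 19.9 to 27.3 TPM in DW1 and 24.9 to 28.4 TPM in DG1. Of the 191 genes 66 were at least 4-fold lower in CG1 replicate 1 than in both other CG1 libraries, as CML37 and ANP2 were. Among all tested genes 1.96% (573 of 29168) passed this limit. The 191 genes were picked by r with a mean course in which CG1 replicate 1 was the lowest CG1 library. Their larger share is therefore in part built in by that choice, and it was not tested. Taken singly, DREB1D was most like ERF017 (r = 0.986), ERF5 most like CAF1-11 (0.991), CML37 most like At2g40140 (0.988), NUDT17 most like OS9 (0.974), At2g30020 most like the receptor kinase CCR4 (0.977) and ANP2 most like At1g61340 (0.985).

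**Figure D5:**
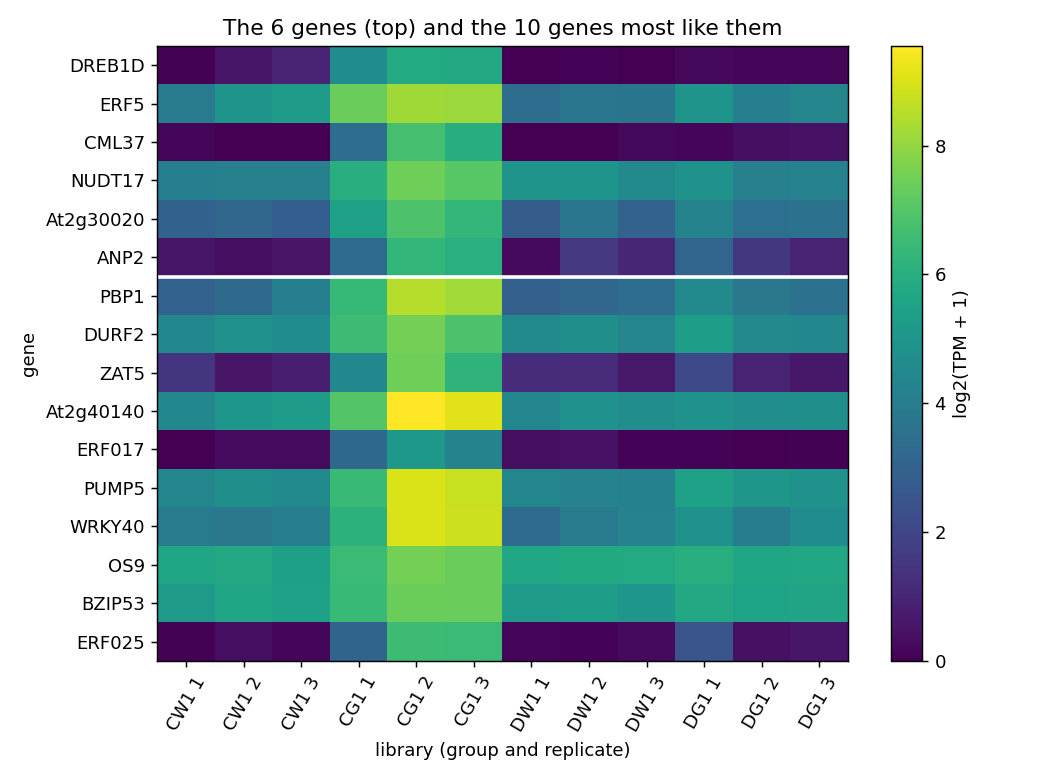
Heat map of log2(TPM + 1), a log scale, for the 6 genes above the white line and the 10 most similar genes with a symbol below it, in the 12 libraries named by group and replicate. The bright columns are CG1 2 and CG1 3, with CG1 1 intermediate, and ANP2 and ERF025 are also raised in DG1 1 (7.71 and 4.72 TPM).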

How the data were processed

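Leaf RNA was sequenced in 12 libraries. The authors assembled clean reads with Trinity without a genome and estimated expression with RSEM, and their deposited table gives the expected counts and the TPM of each unigene per library, with its length and database hits. The labels name a mouse genome build, which has no role in such an assembly. Libraries were grouped by title.

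After rounding of the expected counts and a filter on low values (filterByExpr by group), 29168 genes were fitted with edgeR 4.0.16 under R 4.3.3, using TMM factors, a mean per group over 12 libraries and the quasi-likelihood test, adjusted by Benjamini-Hochberg at 0.05. The code was tested on simulated data. Alternatives were DESeq2 1.42.0 (the tool the study names), DESeq2 size factors, limma 3.58.1 on log2(TPM + 1), no filter, 6 libraries, the replicate number as a block, a 4-fold limit and leaving out each library. Counting intervals are exact at 95%. The depth was 12415229 to 22837632 counts per library.

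Deviations of same-numbered libraries from their group means had r from -0.18 to 0.27 over 18 pairs between groups. For 36 differently numbered pairs r ran from -0.19 to 0.15. The highest r was that of CG1 replicate 1 with DW1 replicate 1. Numbers were not taken as pairs in the main fit. The genes, the 14 lists and the tests were chosen with earlier results of these data known. Named are the 6 genes, unigenes of the same name, component or family, up to 4 called genes per list and direction, and the 10 genes most like the 6 with a symbol.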

Additional observations from a re-analysis of the deposited data

Results flagged for a closer look

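For NUDT17 the day 0 to day 4 differences of the cultivars had opposite signs. So had those of At2g30020 (0.44 ± 0.43 in W1, -2.64 ± 0.45 in G1) and ANP2 (1.56 ± 1.15 in W1, -4.00 ± 1.04 in G1). In W1 all 3 DW1 values of NUDT17 (22.4 to 29.8 TPM) lay above all 3 CW1 values (16.21 to 17.01 TPM), as in 11.3% of tested genes. The log2 difference was 0.79 ± 0.36. In G1 all 3 DG1 values of NUDT17 (16.9 to 28.8 TPM) lay below all 3 CG1 values (64.6 to 171 TPM), as in 19% of tested genes. The log2 difference was -2.61 ± 0.37. The difference between the cultivars was not tested, because the CG1 and CW1 libraries had chosen the genes.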

How the results depend on the processing

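For DG1 against DW1 none of the 4 testable genes was called under any alternative. Their smallest adjusted p ran from 0.185 (ERF5, DESeq2) to 0.537 (ERF5, edgeR without DG1 replicate 1), and all their alternative values kept their sign. DREB1D and CML37 held too few counts to be tested, got no value from the 6 libraries compared alone, and are not counted here. Over all genes the calls depended on the tool and the libraries. In DG1 against DW1, with 2 calls in edgeR, DESeq2 made 1402, limma 84, no filter 6, DESeq2 size factors 1, the 6 libraries compared alone 0, and leaving out a library 0 to 32. In CG1 against CW1, with 129 calls, DESeq2 made 1416, limma 259, 6 libraries 18 and the replicate block 23, while leaving out a library gave 3 to 1190, the highest without CG1 replicate 1 and 16 or fewer without any single other CG1 or CW1 library. In DG1 against CG1, with 6929 calls, the 4-fold limit left 2614, the block 6130, and leaving out a library 3914 to 7121. In DW1 against CW1, with 458 calls, DESeq2 made 3270, limma 270, no filter 240, 6 libraries 1, the 4-fold limit 169, the block 595, and leaving out a library 0 to 1862. The block gave 3 calls in DG1 against DW1. The cause of these shifts was not tested. The number of the 6 genes lower in CG1 replicate 1 was 2 at 4-fold, 4 at 2-fold and 0 at 8-fold. Of the 10 most similar genes 8 were shared with log2(TPM + 0.1) and 7 with log2 CPM. Depth limits DREB1D and CML37, which held 1 count each over the 3 DW1 libraries.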

Other observations

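Unigenes without a symbol also had the course of the 6 genes. A Harbinger transposase-derived nuclease (DN17499_c0_g7, r = 0.989 with the mean course) was at 0, 0 and 0.58 TPM in CW1, 20.8, 91.5 and 59.6 TPM in CG1 and at most 0.27 TPM in the drought libraries. A second unigene with a hit to a protein of this kind, ALP1-like DN21540_c0_g1 (r = 0.976), was at 0.59, 0 and 0.42 TPM in CW1 and 38.7, 114 and 85.9 TPM in CG1. A kinesin-like unigene (DN13822_c0_g2, r = 0.989) was at 1.07, 1.24 and 2.17 TPM in CW1 and 12.4, 53.8 and 39.0 TPM in CG1. These were named after their values were seen.

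The assembly component of NUDT17 also holds a receptor-like kinase, RLK5 (DN13001_c0_g2), at 5.72, 4.44 and 6.14 TPM in CW1, 9.26, 65.2 and 29.5 TPM in CG1, 7.12 to 9.19 TPM in DW1 and 22.8, 6.97 and 7.66 TPM in DG1. Its highest drought library was DG1 replicate 1, as for ANP2, ERF5 and At2g30020 (7.71, 29.4 and 18.4 TPM) but not for NUDT17.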
